A study of Rattus norvegicus and Mus musculus with 17 samples.

Results

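The genes described here are 10 transcripts that mark Kupffer cells, the resident macrophages of the liver, or macrophages more widely: Clec4f, Cd5l, Timd4, Marco, Vsig4, Cd163, Lyz2, Cd68, C1qa and Trem2. They were looked up by gene symbol, without regard to case, and the list was drawn up with earlier results of these data known. The deposited mouse table of the diethylnitrosamine (DEN) model listed 6 of the 10 among 4649 genes, and the rat table of the Morris hepatoma listed 6 of the 10 among 9082 genes. The rat table of regenerating liver listed 0 of the 10 among 2093 genes. These tables cover 20.2%, 39% and 9.02% of the annotated protein-coding genes. In all, 8 of the 10 were listed in at least 1 table, and 4, Clec4f, Cd163, Lyz2 and Cd68, were listed in both tumour tables. The tables hold only genes whose deposited p-value was under 0.05, so a gene that is not listed, Marco and C1qa among them, has no value here.

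RNA sequencing libraries of whole liver or tumour tissue came from male animals. C57BL/6 mice had received the liver carcinogen DEN at 50 mg/kg when 14 days old and, 30 days later, TCPOBOP at 2 mg/kg, an agonist of the nuclear receptor CAR that makes hepatocytes grow and divide. Their livers were taken with tumours at 8 months (n = 3) or before tumours at 5 months (n = 3), so both mouse groups carried both agents, and tumours and age cannot be told apart. ACI rats 10 weeks old were given MH3924a cells, a transplantable Morris hepatoma line, by injection into the liver, and tumours were harvested after 2 weeks (n = 4). Regenerating ACI liver was taken 24 hours after partial hepatectomy at 10 to 12 weeks (n = 4), and untreated, age-matched ACI liver was the control of both rat groups (n = 3). The hepatoma arises from 1 cell line. Whether each library stands for a separate animal is not said in the labels, and p-values here reflect only how far these libraries spread.

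Kupffer cells line the liver sinusoids and clear bacteria, complement-coated particles, ageing red cells and lipid from portal blood. Clec4f, Timd4, Vsig4, Cd5l and Marco mark the resident population, which is seeded before birth and renews itself. When resident cells are lost, blood monocytes enter the liver and become macrophages. These newly arrived cells carry shared macrophage genes such as Lyz2 and Cd68 early, and gain Clec4f and, later, Timd4 with time. In mice, Trem2 marks lipid-handling macrophages of injured liver and many tumour macrophages.

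Levels are given in RPKM, read numbers scaled to transcript length and library size, which allows genes to be compared with each other. Fold changes are log2 differences of RPKM + 1 ± SE, which understates the change of low genes, and a gene was called when its limma p-value, adjusted over all annotated protein-coding genes, was under 0.05. Relative to the first library of each species, depth ran between 0.943 and 1.22 in mice and between 1 and 1.18 in rats, as read from the steps of low values. Hepatoma libraries 3 and 4 held liver transcripts that libraries 1 and 2 largely lacked: Alb, albumin, stood at 18.7% of the control mean in both, against 0.981% in library 1 and 0.0325% in library 2. Control rat library 3 stood apart from control libraries 1 and 2, with 451 RPKM of the hepatocyte gene Cyp2e1 against 3045 and 3687 RPKM, and 172 RPKM of the haem oxygenase gene Hmox1 against 36.0 and 36.1 RPKM. Other hepatocyte genes went both ways in control library 3, with Alb, Ttr and Ass1 lower, Apoa1, Serpina1 and Cps1 higher, and Hnf4a in between. Over all tested genes, log2 fold changes had a median of -0.56 in the DEN model and 1.58 in the Morris hepatoma, and results that change when library medians are set equal are named as such.

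In DEN livers with tumours, the resident markers Clec4f and Timd4 fell, while Lyz2 and Cd68, shared by most mononuclear phagocytes, rose. Of the 6 listed members 5 passed the filter on low values, Timd4 only through the livers before tumours, where it was higher. Of the 5 members tested, 2 were lower, 2 were higher and 1, Vsig4, did not pass. Among all 3684 tested genes 49.5% were called lower and 17.9% higher, so the share of members called lower was no larger than that of all genes. Every listed member had groups that did not overlap, as did 100% of the tested genes when rounded to 3 digits, since the table was selected for differences.

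Clec4f (GeneID 51811), a C-type lectin that in mice and rats is found on Kupffer cells, measured 2.82, 14.2 and 10.9 RPKM in libraries 1 to 3 with tumours, and 30.2, 31.9 and 39.7 RPKM in libraries 1 to 3 before tumours. Each liver with tumours lay below each liver before tumours, and library 1 was the lowest. The means were 9.29 ± 5.85 RPKM with tumours and 33.9 ± 5.05 RPKM before tumours (SD, n = 3 each), a log2 fold change of -1.97 ± 0.49 (limma, adjusted p = 0.046). This call was lost in limma when 1 library was left out, with adjusted p = 0.12, 0.13 and 0.16 without libraries 1, 2 and 3 before tumours and 0.13 without library 3 with tumours. In whole-tissue RNA, fewer cells of a type and less RNA per cell cannot be told apart.

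Timd4 (276891), a phosphatidylserine receptor for apoptotic cells and a marker of long-lived resident macrophages, measured 0.147, 1.02 and 0.723 RPKM with tumours and 1.84, 1.77 and 2.72 RPKM before tumours. The smallest whole read numbers that give these values are 12, 77 and 64 reads with tumours and 134, 132 and 187 reads before tumours. The groups did not overlap, and library 1 with tumours was again the lowest. Of the libraries with tumours only library 2 reached 1 RPKM. Timd4 thus passed the filter through the livers before tumours, where it was higher, and its call rests on that. Timd4 averaged 0.629 ± 0.443 RPKM with tumours and 2.11 ± 0.529 RPKM before tumours (SD, n = 3 each), with a log2 fold change of -0.96 ± 0.22 (limma, adjusted p = 0.026). Leaving out libraries 1, 2 or 3 before tumours gave adjusted p = 0.081, 0.067 and 0.098 in limma, and leaving out library 3 with tumours gave 0.057.

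Vsig4 (278180), the complement receptor CRIg that captures opsonised bacteria, did not pass the threshold. It measured 1.64, 9.11 and 7.19 RPKM with tumours and 18.6, 16.3 and 15.4 RPKM before tumours, with means of 5.98 ± 3.88 RPKM with tumours and 16.8 ± 1.62 RPKM before tumours (SD, n = 3 each). Library 1 with tumours was far below the other two, and the log2 fold change was -1.56 ± 0.47 (limma, adjusted p = 0.098). Without library 1 with tumours the log2 fold change was -0.96 and limma called the gene (adjusted p = 0.0096), and without library 2 with tumours it was called as well (adjusted p = 0.034). It was not called in limma without library 1, 2 or 3 before tumours (adjusted p = 0.29, 0.24 and 0.24). Nor was it called without library 3 with tumours (0.19).

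Cd163 (93671), the scavenger receptor for haptoglobin-haemoglobin complexes, was low in mouse liver and stayed under the filter. It measured 0.160, 0.448 and 0.536 RPKM with tumours and 0.990, 1.13 and 1.54 RPKM before tumours, or 27, 70 and 98 reads with tumours and 149, 174 and 218 reads before tumours. The groups did not overlap, with means of 0.381 ± 0.197 RPKM with tumours and 1.22 ± 0.283 RPKM before tumours (SD, n = 3 each). Without a filter its log2 fold change was -0.69 ± 0.13 (limma, adjusted p = 0.014).

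Lyz2 (17105) encodes lysozyme M, which digests bacterial cell walls and is made by monocytes, macrophages and neutrophils. It measured 58.6, 69.8 and 71.5 RPKM with tumours and 43.2, 28.5 and 40.6 RPKM before tumours. All livers with tumours lay above all livers before tumours, with means of 66.6 ± 7.01 RPKM with tumours and 37.4 ± 7.84 RPKM before tumours (SD, n = 3 each). The log2 fold change was 0.83 ± 0.18 (limma, adjusted p = 0.021), and the call was lost on leaving out library 3 with tumours (0.072) or library 2 of the livers before tumours (0.078). Its near-identical copy Lyz1 (17110), the lysozyme of Paneth cells, measured 4.26, 5.20 and 4.64 RPKM with tumours and 0.955, 1.62 and 3.01 RPKM before tumours. The Lyz1 and Lyz2 transcripts share 1211 of 1264 aligned bases (95.8%), and how the authors counted reads that match both is not given in the sources used here, so the split between both genes is uncertain. The log2 fold change of Lyz1 was 1.05 ± 0.24 (limma, adjusted p = 0.027), with adjusted p between 0.0071 and 0.10 when 1 library was left out, and above 0.05 without any 1 library other than library 3 before tumours.

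Cd68 (12514), a lysosomal membrane protein of phagocytes, measured 20.6, 21.2 and 18.8 RPKM with tumours and 15.1, 13.8 and 14.7 RPKM before tumours. The groups were tight and apart, at 20.2 ± 1.22 RPKM with tumours and 14.5 ± 0.695 RPKM before tumours (SD, n = 3 each). The log2 fold change of 0.45 ± 0.12 was just past the threshold (limma, adjusted p = 0.048), and leaving out any 1 library moved the adjusted p to between 0.10 and 0.21. With library medians set equal, Cd68 was higher by 0.77 ± 0.11 (adjusted p = 0.0048) and Lyz2 by 1.16 ± 0.17 (adjusted p = 0.0051) in limma, while Clec4f at -1.65 ± 0.44 and Timd4 at -0.63 ± 0.20 were no longer called (adjusted p = 0.082 and 0.17).

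**Figure D1:**
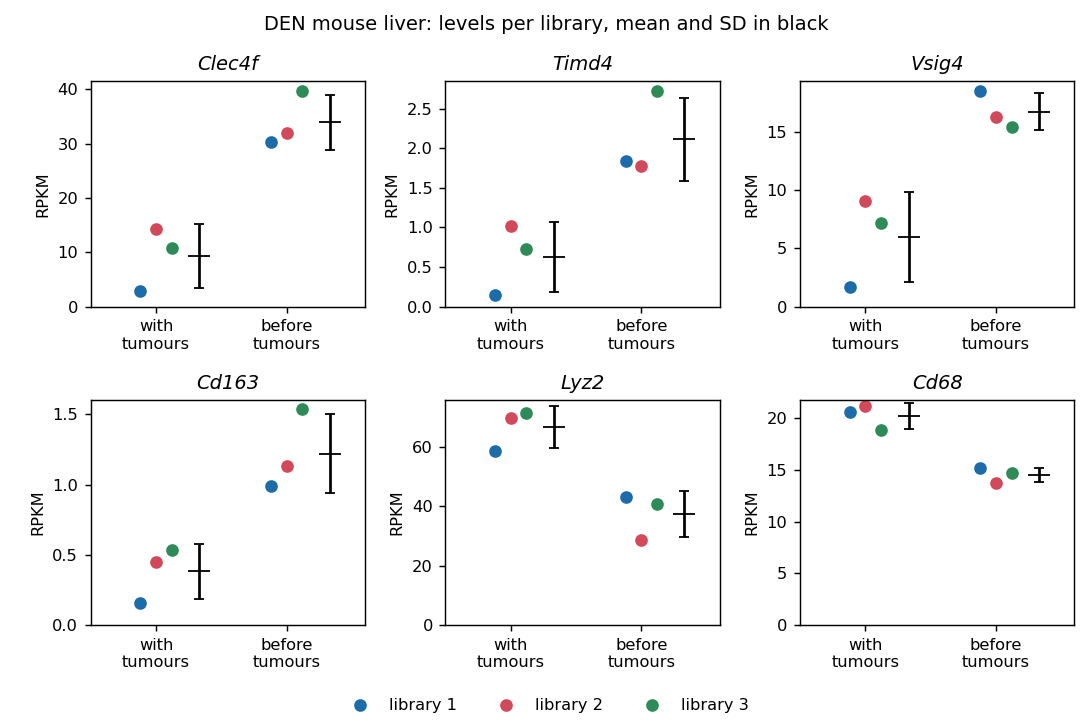
Levels of the 6 listed members in DEN livers with tumours (left in each panel) and before tumours (right), in RPKM on linear axes from 0; points are libraries, and the black bars are mean and SD (n = 3 each). Clec4f, Timd4, Vsig4 and Cd163 lie lower in livers with tumours, with library 1 the lowest of the 3, and Lyz2 and Cd68 lie higher.

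The order of the levels differed between the mouse groups. With tumours, Lyz2 at 66.6 RPKM was followed by Cd68 at 20.2, Clec4f at 9.29, Vsig4 at 5.98, Timd4 at 0.629 and Cd163 at 0.381 RPKM. Before tumours, Lyz2 at 37.4 RPKM was followed by Clec4f at 33.9, Vsig4 at 16.8, Cd68 at 14.5, Timd4 at 2.11 and Cd163 at 1.22 RPKM. Neighbours whose libraries overlapped were Clec4f and Vsig4, and Timd4 and Cd163, with tumours, and Lyz2 and Clec4f before tumours. The ratio of Clec4f to Cd68 was 0.137, 0.670 and 0.577 in libraries 1 to 3 with tumours, and 2.00, 2.32 and 2.71 in libraries 1 to 3 before tumours. Summed over the 6 members the RPKM was 83.9, 116 and 110 with tumours and 110, 93.4 and 115 before tumours, so the sums overlapped while their make-up differed.

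The 4 members that lay lower shared the same low library. Library 1 with tumours held 8.31% of the mean before tumours for Clec4f, 6.96% for Timd4, 9.76% for Vsig4 and 13.1% for Cd163. Library 2 held between 36.7% and 54.4% of these means, and library 3 between 32.0% and 44.0%. Lyz2 and Cd68 did not follow this pattern, at 157% and 142% in library 1, 187% and 146% in library 2, and 191% and 130% in library 3. Of 8 hepatocyte markers 4 were listed, and they did not share a pattern. In the same livers with tumours, albumin stood at 349%, 320% and 341% of its mean before tumours in libraries 1 to 3. Apoa1 stood at 276.5%, 235% and 232%. Cyp2e1 was lowest in library 1, at 1.94%, 19.1% and 5.77%, and Cps1 was highest there, at 69.8%, 48.3% and 21.05%.

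**Figure D2:**
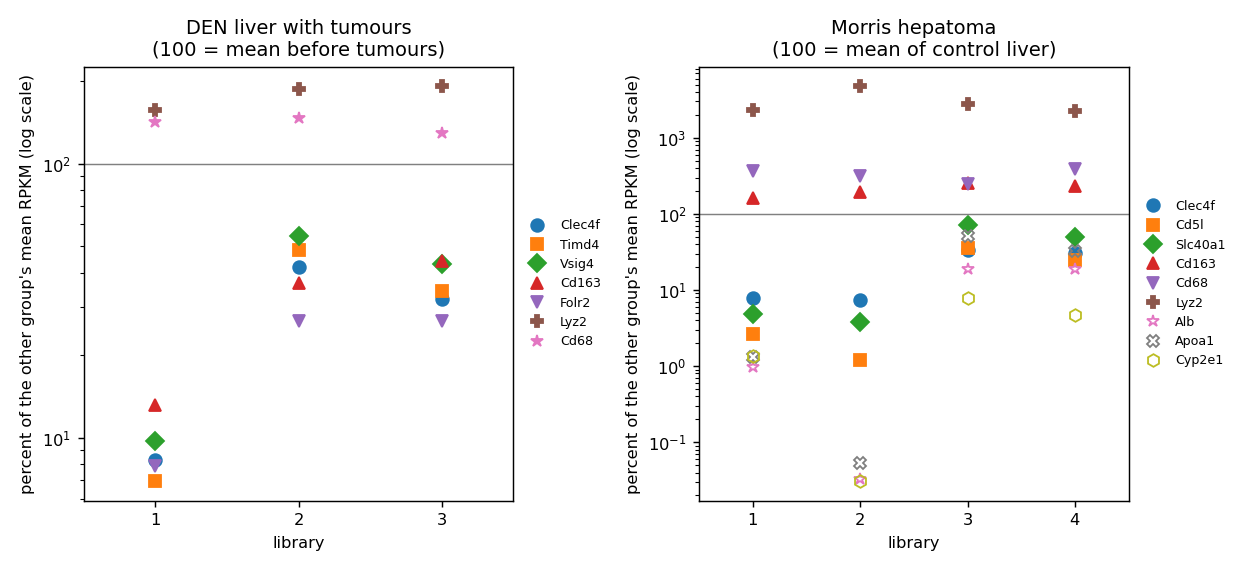
Level of each gene in each tumour library as a percent of a mean on a log axis: DEN livers with tumours against the mean before tumours (left), and Morris hepatomas against the mean of control liver (right); the grey line marks 100. In the mouse, library 1 is lowest for Clec4f, Timd4, Vsig4, Cd163 and Folr2, while Lyz2 and Cd68 stay above 100 in all 3 libraries. In the rat, hepatoma libraries 1 and 2 are lowest for Clec4f, Cd5l and Slc40a1 and also for the hepatocyte genes Alb, Apoa1 and Cyp2e1 (open symbols).

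Markers of other cell types also moved in the DEN livers, and their part in these results was not tested. For endothelial cells 3 of 7 markers were listed, with a summed level of 22.1 to 36.8 RPKM with tumours and 12.7 to 17.9 RPKM before tumours. The erythroid gene Alas2 was the only listed 1 of 5 erythroid markers, at 6.73 to 15.0 RPKM with tumours and 67.8 to 79.9 RPKM before tumours. Of 7 neutrophil markers only S100a8 was listed, at 3.47 to 4.18 RPKM with tumours and 1.19 to 2.67 RPKM before tumours, and it did not pass (limma, adjusted p = 0.066). Of 10 T and NK cell markers and 6 dendritic cell markers 0 were listed, and no listed marker was at 0.

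In the Morris hepatoma, Clec4f fell, while Lyz2, Trem2, Cd68 and Cd163 rose, Cd68 and Cd163 in a direction that turned with library medians set equal. All 6 listed members were tested, and 4 were called higher, 1 was called lower and 1, Cd5l, did not pass. Among all 8233 tested genes 85.5% were called higher and 8.73% lower, so the share of members called higher was no larger than that of all genes. All 6 had groups that did not overlap, as did 98.6% of the tested genes. Tumour tissue holds MH3924a cells beside host cells, and which of them carried a transcript was not measured.

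Promoters of 5 members are shown because these genes took opposite directions in the hepatoma and several share short motifs of macrophage regulators. Each is the 250 bases before the transcript start in rat, from RefSeq on build GRCr8, 5′ to 3′ on the gene's strand. Capitals mark GAGGAA or GGAAGT, core forms of the site bound by the myeloid factor PU.1, and TGAGTCA, the site of AP-1 factors, searched on both strands.
Clec4f: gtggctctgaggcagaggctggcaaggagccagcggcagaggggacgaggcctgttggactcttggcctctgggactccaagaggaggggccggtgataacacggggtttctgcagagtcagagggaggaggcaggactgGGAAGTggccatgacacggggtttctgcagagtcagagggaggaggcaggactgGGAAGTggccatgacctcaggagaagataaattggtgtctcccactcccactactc
Cd5l: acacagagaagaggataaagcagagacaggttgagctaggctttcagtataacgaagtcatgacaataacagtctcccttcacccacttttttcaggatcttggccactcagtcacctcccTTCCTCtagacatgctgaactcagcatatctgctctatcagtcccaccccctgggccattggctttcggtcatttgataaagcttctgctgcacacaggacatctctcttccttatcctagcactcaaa
Lyz2: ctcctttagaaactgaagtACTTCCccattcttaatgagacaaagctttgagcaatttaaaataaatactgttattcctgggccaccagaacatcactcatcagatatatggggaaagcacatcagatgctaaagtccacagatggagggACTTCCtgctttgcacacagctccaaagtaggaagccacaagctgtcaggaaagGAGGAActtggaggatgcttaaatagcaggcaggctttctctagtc
Cd68: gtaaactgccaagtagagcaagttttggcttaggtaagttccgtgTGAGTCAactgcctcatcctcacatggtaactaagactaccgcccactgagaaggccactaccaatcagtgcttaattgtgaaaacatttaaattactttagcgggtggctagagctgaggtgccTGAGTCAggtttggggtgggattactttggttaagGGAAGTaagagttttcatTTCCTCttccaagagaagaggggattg
Trem2: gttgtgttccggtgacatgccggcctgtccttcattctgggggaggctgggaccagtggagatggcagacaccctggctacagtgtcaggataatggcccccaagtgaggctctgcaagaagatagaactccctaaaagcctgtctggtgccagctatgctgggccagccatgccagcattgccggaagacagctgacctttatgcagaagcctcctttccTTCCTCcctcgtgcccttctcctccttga

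These windows are chr4:117696408-117696657 for Clec4f, chr7:54798012-54798261 for Lyz2, chr10:54882442-54882691 for Cd68 and chr9:20151780-20152029 for Trem2, all on the minus strand, and chr2:175088665-175088914 on the plus strand for Cd5l. Clec4f carried GGAAGT at 110 and 56 bases before the start, inside a 56-base stretch that occurs in 2 copies. The copies begin 54 bases apart and so overlap slightly. Lyz2 carried GAGGAA at 46 bases and GGAAGT on the other strand at 231 and 100 bases. Cd68 carried GGAAGT at 45 bases, GAGGAA on the other strand at 27 bases, and TGAGTCA at 205 and 80 bases. Cd5l had GAGGAA on the other strand at 129 bases, Trem2 at 29 bases, and the Cd163 window held none of the 3 motifs. Of 33469 rat promoter windows of this length, 23.3% held GAGGAA, 19.2% GGAAGT, 36.7% at least 1 of these, and 4.05% TGAGTCA. The PU.1 motif was thus found in Clec4f, which was called lower, and in Lyz2, Trem2 and Cd68, which were called higher. The direction of Cd68 depends on the scaling. Cd5l, which also held the motif, lay lower but did not pass.

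Clec4f (114598), whose promoter holds the doubled stretch, measured 6.39, 6.02, 26.8 and 25.0 RPKM in hepatoma libraries 1 to 4, and 79.0, 91.9 and 70.2 RPKM in control libraries 1 to 3. All hepatomas lay below all control livers, with libraries 1 and 2 lower than libraries 3 and 4. The means were 16.0 ± 11.4 RPKM in hepatoma (SD, n = 4) and 80.4 ± 10.9 RPKM in control liver (SD, n = 3), a log2 fold change of -2.54 ± 0.58 (limma, adjusted p = 0.012). Leaving out control library 1, 2 or 3 gave adjusted p = 0.053, 0.062 and 0.061 in limma. With hepatoma libraries 1 and 2 alone, chosen after seeing the data and the lowest for Clec4f, the log2 fold change was -3.49 ± 0.21. A p-value is not given for it, since that choice favours a small one.

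Cd5l (310693), the secreted protein AIM that binds CD36 and restrains lipogenesis, measured 0.900, 0.412, 12.2 and 8.51 RPKM in hepatomas and 28.6, 35.1 and 38.2 RPKM in control livers. Hepatoma libraries 1 and 2 were close to 0 and libraries 3 and 4 were not, which gave means of 5.51 ± 5.81 RPKM in hepatoma (SD, n = 4) and 34.0 ± 4.90 RPKM in control liver (SD, n = 3). The log2 fold change of -3.02 ± 0.91 did not pass (limma, adjusted p = 0.053). It did pass with library medians set equal (0.017), and without hepatoma library 2, 3 or 4 (0.043, 0.021 and 0.047). It did not pass without control library 1, 2 or 3 (0.14, 0.17 and 0.18) or without hepatoma library 1 (0.12). With hepatoma libraries 1 and 2 alone, chosen after seeing the data and the lowest for Cd5l, the log2 fold change was -4.41 ± 0.22. Its p-value is listed only with the other processing settings and cannot be read as a test, since that choice favours a small one.

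Both resident markers were higher in the hepatoma libraries that also held more hepatocyte transcripts. Libraries 3 and 4 held 33.3% and 31.1% of the control mean of Clec4f, and 35.9% and 25.1% of that of Cd5l, while the 8 hepatocyte markers stood between 7.93% (Cyp2e1) and 51.5% (Apoa1) in library 3 and between 4.75% and 33.0% for the same genes in library 4. In libraries 1 and 2, Clec4f stood at 7.95% and 7.49%, Cd5l at 2.65% and 1.21%, and the 8 hepatocyte markers between 0.695% and 2.11% in library 1 and between 0.0309% and 0.234% in library 2. All 8 hepatocyte markers were listed, with a summed level of 38.2 to 21300 RPKM in hepatoma and 81000 to 108300 RPKM in control liver, and Hnf4a was at 0 in at least 1 library. The part of remaining liver tissue in the Clec4f and Cd5l levels was not tested.

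Lyz2 (25211) measured 611, 1232, 715 and 581 RPKM in hepatomas and 15.4, 12.0 and 50.7 RPKM in control livers. All hepatomas lay above all control livers, and control library 3 was the highest of the controls. The means were 785 ± 303 RPKM in hepatoma (SD, n = 4) and 26.0 ± 21.4 RPKM in control liver (SD, n = 3), with a log2 fold change of 5.07 ± 0.50 (limma, adjusted p = 5.9e-05). With library medians set equal the change was 3.39 ± 0.53 (limma, adjusted p = 0.0033).

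Trem2 (301227), a lipid-sensing receptor that signals through the adaptor Tyrobp, was listed at the value that stands for no reads in all 3 control livers. It thus passed the filter through the hepatoma libraries alone. It measured 14.7, 10.8, 4.96 and 10.1 RPKM in hepatomas, or 607, 457, 197 and 400 reads, with a mean of 10.1 ± 4.0 RPKM (SD, n = 4). Set against 3 reads per control library, which are worth 0.0731 RPKM on average, the hepatoma mean of Trem2 was at least 139-fold higher. That bound covers counting error only, and neither the scaling between libraries nor the spread among hepatomas. The fitted log2 fold change of 3.39 ± 0.29 (limma, adjusted p = 8.7e-06) depends on the pseudocount. With library medians set equal it was 1.71 ± 0.28 (limma, adjusted p = 0.0025).

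Cd68 (287435) measured 115, 101, 79.4 and 122 RPKM in hepatomas and 32.4, 34.4 and 28.4 RPKM in control livers. The groups stood well apart, at 104 ± 18.8 RPKM in hepatoma (SD, n = 4) and 31.7 ± 3.04 RPKM in control liver (SD, n = 3). The log2 fold change of 1.67 ± 0.20 (limma, adjusted p = 7.6e-05) was close to the median of all tested genes. With library medians set equal it was -0.02 ± 0.18 (limma, adjusted p = 1), so the direction of Cd68 depends on the scaling.

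Cd163 (312701) measured 11.9, 14.4, 19.0 and 17.5 RPKM in hepatomas and 5.43, 6.64 and 10.4 RPKM in control livers. Each hepatoma lay above each control liver, although control library 3 came close to hepatoma library 1. Cd163 averaged 15.7 ± 3.19 RPKM in hepatoma (SD, n = 4) and 7.47 ± 2.57 RPKM in control liver (SD, n = 3), with a log2 fold change of 1.00 ± 0.24 (limma, adjusted p = 0.0069). The direction turned with the scaling, to -0.69 ± 0.25 with library medians set equal (limma, adjusted p = 0.11) and -0.62 ± 0.26 under quantile normalization (0.18). Hmox1, which breaks down the haem that Cd163 helps to take up, rose to 317 ± 79.2 RPKM in hepatoma, against 81.4 ± 78.6 RPKM in control liver (2.33 ± 0.56, limma, adjusted p = 0.014). Its adjusted p was 1 with library medians set equal.

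**Figure D3:**
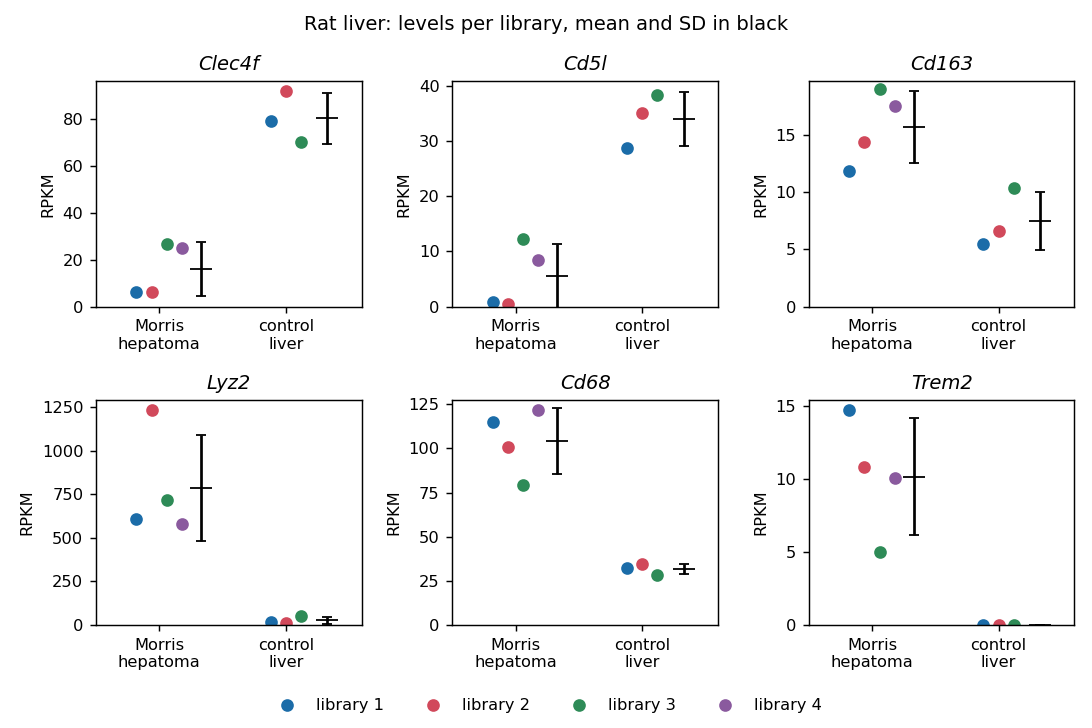
Levels of the 6 listed members in Morris hepatomas (left in each panel, n = 4) and control rat livers (right, n = 3), in RPKM on linear axes cut at 0; points are libraries, and the black bars are mean and SD. Clec4f and Cd5l lie lower in hepatoma, with libraries 1 and 2 below libraries 3 and 4, and Lyz2, Cd68, Cd163 and Trem2 lie higher, Trem2 having no reads in control liver and Cd68 and Cd163 turning direction with library medians set equal.

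Among the rat groups too the order of levels differed. In hepatoma, Lyz2 at 785 RPKM was followed by Cd68 at 104, Clec4f at 16.0, Cd163 at 15.7, Trem2 at 10.1 and Cd5l at 5.51 RPKM. In control liver, Clec4f at 80.4 RPKM was followed by Cd5l at 34.0, Cd68 at 31.7, Lyz2 at 26.0 and Cd163 at 7.47 RPKM, with Trem2 at no reads. Neighbours whose libraries overlapped were Clec4f and Cd163, Cd163 and Trem2, and Trem2 and Cd5l in hepatoma, and Cd5l, Cd68 and Lyz2 in control liver. The ratio of Clec4f to Cd68 was 0.0557, 0.0597, 0.337 and 0.205 in hepatoma libraries 1 to 4, and 2.44, 2.67 and 2.47 in control libraries 1 to 3. Since this ratio is taken within a library, a single scaling factor per library does not change it. Quantile normalization can change it and was not applied to the ratio.

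Of the 4 members listed in both species, Clec4f was lower and Lyz2 and Cd68 were higher in both tumour models, the last of these with the scaling limit given above for the rat. In the DEN model the calls of Clec4f and Lyz2 were lost without some libraries, and that of Cd68 without any library. In the hepatoma the call of Clec4f was lost without any control library. Cd163 stood at 0.313 of its mean before tumours in DEN livers with tumours, and at 2.10 times its control mean in the hepatoma. The difference between the models was not tested, since the tables are of different species and were selected separately. Within a library the ratio of Lyz2 to Cd68 was 2.85, 3.30 and 3.79 in DEN livers with tumours and 2.85, 2.07 and 2.77 before tumours. It was 5.32, 12.2, 9.01 and 4.77 in hepatomas and 0.477, 0.348 and 1.78 in control rat livers.

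Other genes of resident macrophages and iron handling did not all follow Clec4f. In the DEN model 5 of 17 on this list were listed and tested, and 3 were lower, 1 was higher and 1, the iron exporter Slc40a1, did not pass, where 49.5% of all tested genes were lower and 17.9% higher. Folr2, a folate receptor of resident macrophages, fell to 2.83 ± 1.5 RPKM with tumours, against 13.9 ± 3.14 RPKM before tumours (-2.03 ± 0.34, limma, adjusted p = 0.0090). Its values with tumours were 1.09, 3.69 and 3.70 RPKM, library 1 again the lowest. C6, a terminal complement component made by hepatocytes as well as mouse Kupffer cells, fell to 15.7 ± 13.6 RPKM with tumours, against 150 ± 19.5 RPKM before tumours (-3.54 ± 0.60, limma, adjusted p = 0.013, and 0.094 without library 3 with tumours). Id3, a helix-loop-helix regulator needed for Kupffer cell identity in mice but expressed in many cells, fell to 26.2 ± 2.96 RPKM with tumours, against 58.6 ± 7.79 RPKM before tumours (-1.13 ± 0.15, limma, adjusted p = 0.0026). Its relative Id1 rose to 17.7 ± 2.93 RPKM with tumours, against 5.81 ± 1.27 RPKM before tumours (1.46 ± 0.18, limma, adjusted p = 0.0017).

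In the hepatoma 8 of these 17 genes were listed and tested, and 5 were higher, 1 was lower and 2, Slc40a1 and C6, did not pass, against 1 higher and 2 lower with library medians set equal, where Zeb2 turned direction. Of all tested genes there 85.5% were higher and 8.73% lower. Nr1h3, the oxysterol receptor LXR alpha of Kupffer cells and hepatocytes, fell to 18.0 ± 9.47 RPKM in hepatoma, against 61.9 ± 18.9 RPKM in control liver (-1.82 ± 0.41, limma, adjusted p = 0.0077). Its values were 9.27, 11.6, 30.0 and 20.9 RPKM in hepatomas 1 to 4, with libraries 1 and 2 again the lowest. Id1 rose to 44.4 ± 5.09 RPKM in hepatoma, against 1.61 ± 0.506 RPKM in control liver (4.13 ± 0.19, limma, adjusted p = 4.5e-07). Cd38, an NAD-consuming surface enzyme, and Id3 rose less, by 1.90 ± 0.25 and 1.82 ± 0.24 on the log2 scale (limma, adjusted p = 0.00014 and 0.00015), and neither was called with library medians set equal (adjusted p = 1 each). Slc40a1, at 4.77%, 3.74%, 70.5% and 49.7% of its control mean in hepatoma libraries 1 to 4, was split like Clec4f and Cd5l. The list's median log2 fold change was -1.13 in the DEN model, where that of all tested genes was -0.56, and 1.62 in the hepatoma, where it was 1.58.

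Complement and scavenger receptors of macrophages were listed for 2 of 15 genes in the DEN model. The Fc receptor gene Fcgr3 rose to 9.25 ± 0.50 RPKM with tumours, against 5.95 ± 0.956 RPKM before tumours (0.57 ± 0.14, limma, adjusted p = 0.036). That call was lost without any 1 library other than library 3 before tumours (adjusted p between 0.063 and 0.16). Colec12, a scavenger receptor also found on endothelial cells, fell to 7.78 ± 2.74 RPKM with tumours, against 25.4 ± 2.87 RPKM before tumours (-1.64 ± 0.24, limma, adjusted p = 0.0040). In the hepatoma 6 of 15 were listed and all 6 were called higher, as were 85.5% of all tested genes, with a median log2 fold change of 2.09 beside 1.58 for all tested genes. Setting library medians equal left 1 called higher and 1 lower, and Mertk and Mrc1 turned direction. The inhibitory Fc receptor gene Fcgr2b rose most among the named ones, to 107 ± 31.1 RPKM in hepatoma, against 12.0 ± 7.83 RPKM in control liver (3.17 ± 0.39, limma, adjusted p = 0.00014). The scavenger receptor Msr1 reached 27.7 ± 9.88 RPKM in hepatoma, against 4.89 ± 1.37 RPKM in control liver, and the apoptotic-cell receptor Axl 24.4 ± 3.31 RPKM in hepatoma, against 5.57 ± 1.05 RPKM in control liver. Neither Msr1 nor Axl was called with library medians set equal (limma, adjusted p = 0.45 and 0.49). The C1q chain genes C1qb and C1qc, the Trem2 adaptor gene Tyrobp, the growth factor receptor gene Csf1r and Ptprc were listed in no table.

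Genes of lipid-associated and tumour-associated macrophages were tested in both tumour models. In the DEN model 5 of 15 were tested, 4 were higher and 1, Lipa, did not pass, where 17.9% of all tested genes were higher, with a median of 1.80 beside -0.56 for all tested genes. The tetraspanin Cd63 measured 278, 206 and 178 RPKM with tumours and 9.96, 18.9 and 15.5 RPKM before tumours (3.83 ± 0.25, limma, adjusted p = 0.00021). Cd9, another tetraspanin, rose to 127 ± 36.1 RPKM with tumours, against 27.7 ± 4.5 RPKM before tumours (2.12 ± 0.22, limma, adjusted p = 0.00088). Itgax, the integrin CD11c, was low, at 1.75 ± 0.151 RPKM with tumours and 0.618 ± 0.255 RPKM before tumours (0.78 ± 0.14, limma, adjusted p = 0.0081). Cd63 and Cd9 are also expressed by epithelial and other cells, and the tissue does not show which cells carried them.

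In the hepatoma 12 of these 15 were tested, and 9 were higher, 2 were lower and 1, Ctsb, did not pass, where 85.5% of all tested genes were higher and 8.73% lower, with a median of 3.05 beside 1.58 for all tested genes. Of the 12, 5 were called higher and 3 lower with library medians set equal, where Ctsb turned direction. Spp1, osteopontin, which is also a bile duct marker and made by many tumours, measured 222, 265, 182 and 215 RPKM in hepatomas and 0.907, 0.578 and 1.33 RPKM in control livers (6.84 ± 0.20, limma, adjusted p = 1.3e-07). Gpnmb, a lysosomal glycoprotein of lipid-laden macrophages, rose to 269 ± 65.3 RPKM in hepatoma, against 9.68 ± 0.918 RPKM in control liver (4.63 ± 0.23, limma, adjusted p = 5.3e-07). Cd9 rose to 41.8 ± 5.44 RPKM in hepatoma, against 1.70 ± 0.116 RPKM in control liver (3.98 ± 0.16, limma, adjusted p = 3.3e-07). The genes called lower were Lipa, lysosomal acid lipase (-1.37 ± 0.30, limma, adjusted p = 0.0044), and Apoe, an apolipoprotein made mainly by hepatocytes (-3.95 ± 1.04, limma, adjusted p = 0.028). Apoe lost its call without control library 1, 2 or 3 (0.11, 0.12 and 0.062) or hepatoma library 1 (0.072).

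**Figure D4:**
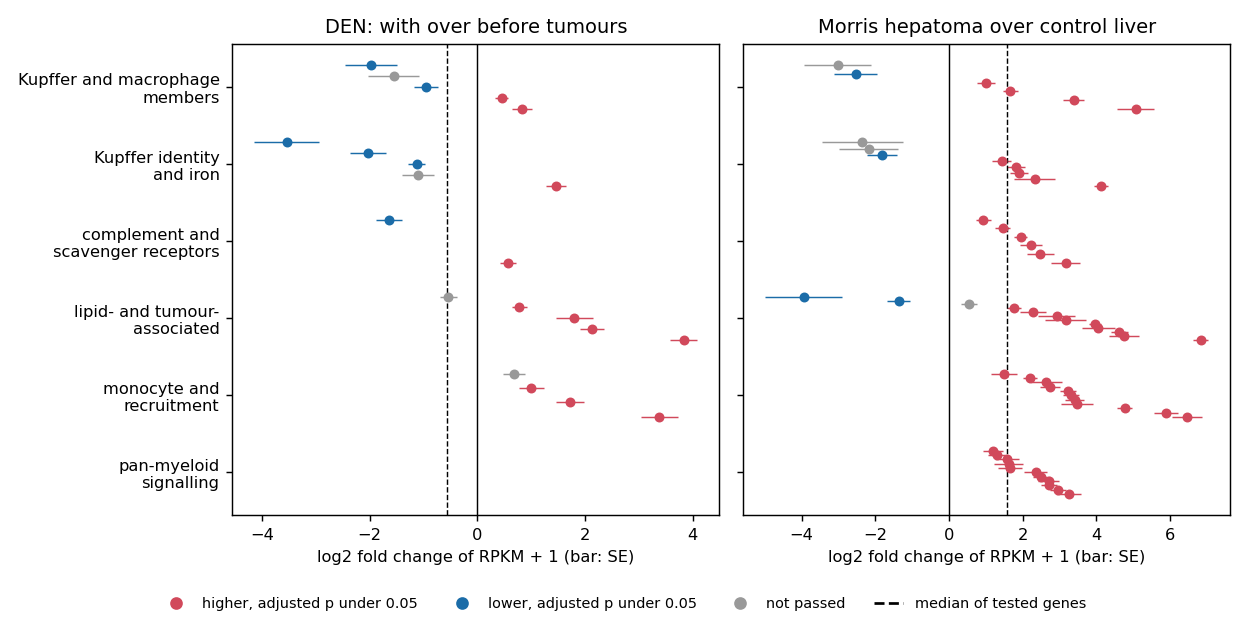
Log2 fold change of RPKM + 1 with its SE for each tested gene of the members and of 5 further lists, in DEN livers with over before tumours (left) and in Morris hepatoma over control liver (right); red and blue mark genes higher and lower at an adjusted p under 0.05, grey those that did not pass, and the dashed line the median of all tested genes, -0.56 and 1.58. Members and genes of Kupffer cell identity lie on both sides of 0 in both models, and the monocyte genes called in either model were called higher, of which Csf2ra in the hepatoma turned direction with library medians set equal.

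In the DEN model 3 of 4 tested monocyte and recruitment genes were higher and Plac8 did not pass, where 17.9% of all tested genes were higher. Cd14, the lipopolysaccharide co-receptor, measured 23.1, 30.1 and 48.5 RPKM with tumours and 1.74, 3.92 and 1.44 RPKM before tumours (3.38 ± 0.34, limma, adjusted p = 0.0014). S100a4, a calcium-binding protein of monocytes and fibroblasts, rose to 5.79 ± 2.43 RPKM with tumours, against 0.982 ± 0.218 RPKM before tumours (1.71 ± 0.26, limma, adjusted p = 0.0050). Ccl2, the chemokine that draws monocytes, rose to 4.22 ± 1.07 RPKM with tumours, against 1.64 ± 0.668 RPKM before tumours (1.00 ± 0.23, limma, adjusted p = 0.028). Leaving out libraries 1 or 2 before tumours, or 2 or 3 with tumours, took the adjusted p of Ccl2 to 0.067, 0.077, 0.064 and 0.087. Ccr2, its receptor, was under the filter at 0.955 RPKM with tumours and 0.287 RPKM before tumours.

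In the hepatoma all 11 tested monocyte and recruitment genes were higher, as were 85.5% of all tested genes, with a median of 3.32 beside 1.58 for all tested genes, and with library medians set equal 8 were called higher and 0 lower, while Csf2ra turned direction. Ccl2 measured 46.4, 118, 128 and 82.2 RPKM in hepatomas and 0.684, 0.260 and 0.534 RPKM in control livers (5.89 ± 0.33, limma, adjusted p = 1.3e-06). The related chemokine Ccl7 rose to 29.6 ± 6.44 RPKM in hepatoma, against 0.107 ± 0.0993 RPKM in control liver (4.77 ± 0.20, limma, adjusted p = 3.5e-07). Of the pan-myeloid signalling list 11 of 20 were tested and all 11 were higher, as were 85.5% of all tested genes, with a median of 2.35, while with library medians set equal 4 were called higher and 0 lower, and Cybb, Fcer1g, Irf5, Lyn and Spi1 turned direction. Among them Tlr4, the lipopolysaccharide receptor, measured 13.1, 13.9, 7.48 and 12.5 RPKM in hepatomas and 0.589, 0.652 and 0.541 RPKM in control livers (2.97 ± 0.21, limma, adjusted p = 2.7e-06). Cyba, a subunit of the phagocyte oxidase, and Laptm5, a lysosomal protein of blood cells, rose by 2.72 ± 0.22 and 2.51 ± 0.24 on the log2 scale (limma, adjusted p = 6.2e-06 and 1.5e-05). None of the 20 was listed in the DEN table.

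Markers of other cell types also differed between hepatoma and control liver, and their part in the macrophage results was not tested. For stellate cells and fibroblasts 4 of 7 markers were listed, with a summed level of 409 to 1034 RPKM in hepatoma and 18.4 to 72.9 RPKM in control liver. The 3 listed of 6 dendritic cell markers summed to 5.89 to 9.14 RPKM in hepatoma and 0.753 to 1.20 RPKM in control liver, and the 2 listed of 7 endothelial markers to 41.2 to 70.5 RPKM in hepatoma and 5.55 to 10.2 RPKM in control liver. Of 10 T and NK cell markers 3 were listed, at a sum of 3.37 to 11.02 RPKM in hepatoma and 1.74 to 4.13 RPKM in control liver, with Cd3g at 0 in at least 1 library. Among these 3 Gzma, a granzyme of cytotoxic cells, fell to 0.566 ± 0.337 RPKM in hepatoma, against 2.85 ± 1.26 RPKM in control liver (-1.26 ± 0.27, limma, adjusted p = 0.0036). Of 7 neutrophil and 5 erythroid markers 0 were listed.

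In regenerating liver 0 of the 10 members were listed, where the table held 9.02% of annotated protein-coding genes. Of the further lists Csf1, the growth factor that keeps macrophages alive, was the 1 gene called. It measured 7.56, 6.66, 6.79 and 8.88 RPKM in regenerating livers and 1.22, 1.34 and 2.75 RPKM in control livers, without overlap. Csf1 rose to 7.47 ± 1.02 RPKM in regenerating liver (SD, n = 4), against 1.77 ± 0.851 RPKM in control liver (SD, n = 3), a log2 fold change of 1.65 ± 0.19 (limma, adjusted p = 0.0075). This call was lost with library medians set equal (adjusted p = 0.071) or under quantile normalization (0.089). Among all 1703 tested genes 21.2% were called higher and 0.763% lower.

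Csf1 also rose in the hepatoma, which shares its control livers with the regenerating group. Hepatomas held 22.7, 22.9, 27.3 and 24.7 RPKM, a log2 fold change of 3.24 ± 0.21 over control liver (limma, adjusted p = 1.6e-06). Set directly against regenerating liver, Csf1 was 1.59 ± 0.14 higher in hepatoma on the log2 scale (limma, adjusted p = 1.3e-06), a comparison limited to genes listed in both rat tables, which include no member. With library medians set equal the adjusted p of that difference was 1. In the same comparison, where 80.8% of 1673 tested genes were called higher and 4% lower, the macrophage lectin gene Lgals3 stood at 686 ± 115 RPKM in hepatoma and 62.1 ± 11.6 RPKM in regenerating liver (3.45 ± 0.18, limma, adjusted p = 8.2e-09). Gpnmb stood at 269 ± 65.3 RPKM in hepatoma and 17.7 ± 3.88 RPKM in regenerating liver (3.84 ± 0.21, limma, adjusted p = 1.1e-08), and Id1 at 44.4 ± 5.09 RPKM in hepatoma and 5.26 ± 2.06 RPKM in regenerating liver (2.92 ± 0.22, limma, adjusted p = 3.4e-07). Nr1h3 was lower, at 18.0 ± 9.47 RPKM in hepatoma and 92.3 ± 9.33 RPKM in regenerating liver (-2.43 ± 0.31, limma, adjusted p = 0.00043). Coro1a, an actin-binding protein of leukocytes, was higher by 2.58 ± 0.30 (limma, adjusted p = 0.00021), though not with library medians set equal (adjusted p = 0.33). The kinase gene Lyn was higher by 0.91 ± 0.20 (limma, adjusted p = 0.0090), and its direction turned with library medians set equal (-0.65 ± 0.23, adjusted p = 0.38).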

How the data were processed

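RNA-seq tables of whole liver or tumour were analysed, 6 mouse and 11 rat libraries. The authors deposited values per gene and library that were taken as RPKM from their steps at low levels and a floor of 0.001 for no reads, as the headers name no unit. Per the file headers, the deposited tables also give a log2 ratio of group means and a p-value, and each listed gene had a p-value under 0.05. The aligner, genome build, annotation and counting are not given in the sources used here, and the absolute depth is unknown.

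The test was limma 3.58.1 in R 4.3.3, two-sided with its trend and robust options, on log2(RPKM + 1) of genes with at least 1 RPKM in at least as many libraries as the smaller group. A gene could pass this filter through the group where it was higher, as Timd4 and Trem2 did. Because the tables are preselected, p-values were adjusted by Benjamini-Hochberg over all 21951 (mouse) or 23154 (rat) annotated protein-coding genes, and may still be too small. The fit was also run on simulated data with few changed genes, equally up and down. That setting lacks the shift shared by most hepatoma genes, so it cannot vouch for the calls given here. Livers with tumours were set against livers before tumours in the DEN model, hepatoma and regenerating liver each against control liver, and hepatoma against regenerating liver for genes in both rat tables. The members, the gene lists and the cell type markers were chosen with earlier results of these data known. Named genes were all members, partner genes, and up to 3 called genes with the smallest adjusted p per direction, list and comparison. Alternatives changed the pseudocount, filter, scaling, adjustment, limma settings, replicate block, fitted groups and libraries left out.

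Read numbers are the smallest that make low values whole within 0.02 reads, which held for 80.0% to 88.0% of low genes per tumour or regenerating library; a library's true numbers may be multiples. Motifs and alignments used Python 3.11.15, numpy 2.4.6, pandas 2.3.3 and Biopython 1.88, and figures matplotlib 3.10.9. Replicates carry the same numbers across groups, but the labels do not pair them.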

Additional observations from a re-analysis of the deposited data

Results flagged for a closer look

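Among the members and named genes in hepatoma and regenerating libraries, 26 groups of 4 values were looked at for a single value far from the rest, where chance gives such a value in about 5% of groups. Cyba, a subunit of the phagocyte oxidase, was the 1 gene found: hepatoma library 2 stood at 235.9 RPKM, while the other hepatoma libraries held 139, 144 and 144 RPKM.

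For 4 genes every library of a comparison lay on one side of its controls and every library of another comparison on the opposite side. Groups without overlap are the rule in these preselected data. They were found for 100% of tested genes in the DEN model, when rounded, and 98.6% in the hepatoma, so the count is a description only. Cd163, the haemoglobin scavenger receptor, was at 0.313 of its mean before tumours in DEN livers with tumours, and at 2.10 of its control mean in the Morris hepatoma, where its direction turned with library medians set equal. Id3 was at 0.448 of its mean before tumours in DEN livers with tumours, and at 3.81 of its control mean in the hepatoma, where it was not called with library medians set equal. Colec12 was at 0.307 of its mean before tumours in DEN livers with tumours, and at 2.42 of its control mean in regenerating liver, where it was under the filter at 0.308 RPKM against 0.127 RPKM in control liver. Nr1h3 was at 0.290 of its control mean in the hepatoma and at 1.49 of the same control mean in regenerating liver, where it did not pass (limma, adjusted p = 0.26) and its direction turned with library medians set equal. None of the differences between the mouse and rat models was tested, because they lie between tables selected separately in different species. For Nr1h3 the direct comparison of hepatoma with regenerating liver was tested, with a log2 fold change of -2.43 ± 0.31 (limma, adjusted p = 0.00043).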

How the results depend on the processing

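The tables hold only genes selected for a difference, so scalings built on them also take out any shift those genes share. In the DEN model, limma called 0 members lower with a pseudocount of 0.1, a filter at 5 RPKM, library medians set equal or quantile normalization. In these settings the adjusted p of Clec4f was 0.078, 0.084, 0.082 and 0.20. That of Timd4 was 0.082, 0.17 and 0.082 with the pseudocount, medians set equal and quantile normalization. The filter at 5 RPKM left 1 member higher, with Cd68 at 0.067, and 289 genes higher and 1072 lower. Medians set equal left 731 genes lower and quantile normalization 599. Vsig4 was called with adjustment over the tested genes alone (0.017). The summed members changed from a log2 ratio of -0.039 to 0.348 in the DEN model and from 2.38 to 0.397 in the hepatoma when RPKM was divided by the library median. In the hepatoma 2 members were called lower without a filter, with medians set equal, with quantile normalization, with adjustment over tested genes alone, without the trend and robust settings, and with hepatoma libraries 1 and 2 only. There the adjusted p of Cd5l was 0.045, 0.017, 0.010, 0.019, 0.015 and 2.5e-05. The last of these values cannot be read as a test. Hepatoma libraries 1 and 2 were chosen after seeing the data and were the lowest for Clec4f and Cd5l. That choice favours a small p-value, so the calls of both genes in that setting carry no weight. With libraries 1 and 2 only, Cd163 was at 0.081. Medians set equal left 2 members higher, turned Cd163 (0.11) and Cd68 (adjusted p = 1), and gave 1957 genes higher and 2443 lower. Quantile normalization gave 2609 and 1850 and turned Cd163 (0.18). In regenerating liver the genes higher and lower were 149 and 4 with the filter at 5 RPKM, 18 and 59 with medians set equal, 20 and 41 with quantile normalization, and 1561 and 65 with adjustment over tested genes alone, and 22 were lower without a filter. Between hepatoma and regenerating liver they were 434 and 495 with medians set equal and 501 and 434 with quantile normalization, and Lyn turned in both (0.38 and 0.52). With all 3 rat groups in 1 limma fit over shared genes, which hold no member, the hepatoma had 1553 higher and 68 lower, since fewer genes are tested, and regenerating liver 3 lower. Apart from these constructions the cause of the changes was not tested. Same-numbered replicates did not deviate together, with correlations of -0.0853, -0.159 and -0.0221 in the DEN model and -0.152, -0.220 and -0.198 in the hepatoma. A replicate block left 1 DEN member higher, with Cd68 at 0.17, called 242 genes lower in the hepatoma, and 23 higher and 2 lower in regenerating liver. With 1 library left out, limma called 0 to 1 DEN members higher and 0 to 4 lower, 409 to 631 genes higher and 922 to 1962 lower. The adjusted p ran between 0.0038 and 0.16 for Clec4f, 0.0074 and 0.098 for Timd4, 0.0096 and 0.29 for Vsig4, 0.031 and 0.078 for Lyz2, and 0.10 and 0.21 for Cd68. Cd163 entered only the fits without library 1 before tumours or without library 1, 2 or 3 with tumours. It passed the filter there through the livers before tumours, with adjusted p between 0.016 and 0.057. Without library 1 before tumours, and without library 3 with tumours, Cd163 was the only member called lower. In the hepatoma 4 members stayed higher, 0 to 2 were lower, and 346 to 838 genes were lower, with Clec4f between 0.0052 and 0.062 and Cd5l between 0.021 and 0.18. Regenerating liver had 20 to 338 genes higher and 1 to 15 lower. Absolute depth is unknown, so low members such as Timd4 and Cd163 in mice are known only to the read numbers given.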
